A study of Mus musculus with 16 samples.

Results

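The PDGF ligands and receptors were 6 genes of the 47729 in the count tables, taken by symbol. Pdgfa, Pdgfb, Pdgfc and Pdgfd encode the 4 ligand chains, and Pdgfra and Pdgfrb encode the 2 receptors. Their transcripts were followed in 4 cell types from unchallenged mouse liver, namely endothelial cells (ECs), hepatic stellate cells (HSCs), Kupffer cells, which are the resident macrophages of the liver, and hepatocytes. Each cell type had 2 libraries labelled wild-type (WT) and 2 labelled knock-out (KO), 16 in all. The KO label stands for adult mice with floxed Zeb2 alleles and a tamoxifen-inducible Cre recombinase driven by the Cdh5 promoter, which is active in endothelium. The WT label stands for littermates without Cre, which also received tamoxifen, so that all 8 groups share this treatment (2 mg per day on 5 consecutive days). By the study's methods the mice were males, the Cre line carried a fluorescent reporter, HSCs were sorted by their vitamin A autofluorescence, Kupffer cells by a macrophage surface antigen, ECs by a pan-endothelial antibody, and hepatocytes were separated from the other cells by centrifugation. The 4 cell types were isolated at the same time, and which libraries came from the same liver is not given. The labels do not name the mouse behind each library. The study counts its sequenced samples in the same way as the extended set of mice of its follow-up. This reads as a separate mouse for each library of a group, although it is not said outright. P-values measure the spread between the 2 libraries of a group.

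The PDGF family works as a set of disulfide-linked dimers of ligand chains that bind and cross-link a pair of receptor tyrosine kinases. PDGF-A and PDGF-B chains are active when secreted, whereas PDGF-C and PDGF-D carry an amino-terminal CUB domain that a protease must remove. PDGF receptor alpha binds the A, B and C chains, and PDGF receptor beta binds mainly the B and D chains. In many tissues endothelial PDGF-B recruits receptor beta-positive mural cells to vessels, and in the liver HSCs are the pericyte-like cells of the sinusoid, for which PDGF is a strong mitogen during fibrosis.

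In GRCm38, Pdgfa (ENSMUSG00000025856) lies on chromosome 5 from 138976014 to 138997370 on the reverse strand, Pdgfb (ENSMUSG00000000489) on chromosome 15 from 79995874 to 80014977 on the reverse strand, and Pdgfc (ENSMUSG00000028019) on chromosome 3 from 81036416 to 81214040 on the forward strand. Pdgfd (ENSMUSG00000032006) spans positions 6168584 to 6378850 of chromosome 9 and Pdgfra (ENSMUSG00000029231) positions 75152292 to 75198215 of chromosome 5, both on the forward strand. Their exons cover between 3.12 kb (Pdgfa) and 10.0 kb (Pdgfra), and for this reason levels of members were compared with each other only as CPM per kb of exon, while genes of the marker and pathway lists were picked by plain CPM. The RefSeq promoter table matched 4 of the 6 members (Pdgfa, Pdgfc, Pdgfd and Pdgfra), and 2 members, Pdgfb and Pdgfrb, had no entry. Printed here are the 250 bases before the start of the ligand that was highest in ECs and of 1 receptor of HSCs, as RefSeq places it in GRCm38.p6, at chr9:6168236-6168485 for Pdgfd and chr5:75152001-75152250 for Pdgfra, both on the forward strand. Capitals mark CACCT, the half-site that Zeb2 and its relative Zeb1 are known to bind, which was searched on both strands (AGGTG on the other).
Pdgfd: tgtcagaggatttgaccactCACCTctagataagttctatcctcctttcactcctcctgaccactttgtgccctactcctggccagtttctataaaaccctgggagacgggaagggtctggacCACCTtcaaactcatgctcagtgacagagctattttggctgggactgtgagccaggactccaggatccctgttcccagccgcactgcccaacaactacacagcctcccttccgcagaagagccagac
Pdgfra: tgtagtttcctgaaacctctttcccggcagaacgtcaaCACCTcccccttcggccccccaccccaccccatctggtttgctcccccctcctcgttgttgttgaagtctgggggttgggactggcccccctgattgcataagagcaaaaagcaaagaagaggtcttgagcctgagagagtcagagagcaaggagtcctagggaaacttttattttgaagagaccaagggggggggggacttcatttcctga
The Pdgfd window held CACCT 2 times, 230 and 127 bases before the start, and the Pdgfra window 1 time, 212 bases before it. Of 2 Pdgfa windows, 1 held it on the other strand, and the Pdgfc window did not hold these letters on either strand. CACCT or its reverse was in 46.0% of the 32851 promoter windows of this length. The Pdgfd window also held TATAAA, which was in 7.59% of all windows.

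The libraries held 12872706 to 15690506 gene reads each, with a median of 14806833, at which 3 reads correspond to 0.191 to 0.233 CPM, the counts scaled to the library's gene reads. Zeb2, the targeted gene, had 106 CPM in each EC library labelled WT, and 199 and 130 CPM in those labelled KO (edgeR log2 fold change 0.62, SE 0.24, adjusted p = 0.303). The count of Zeb2 was thus not lower under the KO label. The study reports an efficient endothelial deletion of Zeb2 after tamoxifen, by mRNA level and by the share of ECs affected. The count used here covers the whole gene, and reads of the floxed part were not separated. Groups are therefore called by their labels throughout. Each cell type had its own markers: a list of 12 endothelial genes summed to 18983 to 24611 CPM in ECs and to at most 1554 CPM elsewhere, 11 stellate genes to 47440 to 55777 CPM in HSCs and to at most 999 CPM elsewhere, and 10 Kupffer genes to 46093 to 67856 CPM in Kupffer cells and to at most 2983 CPM elsewhere. The 11 hepatocyte genes summed to 109170 to 126612 CPM in hepatocytes and to at most 26422 CPM elsewhere. The leading genes of the first 3 lists were Clec4g, a sinusoidal lectin, Dcn, which encodes decorin, and Clec4f, a Kupffer lectin. The hepatocyte list was the least exclusive, since its leading gene Alb (albumin) had 6207 and 12528 CPM in ECs labelled WT against 1526 and 937 CPM in ECs labelled KO. Kupffer library WT 31 had the highest sum of Kupffer markers, with 67856 CPM against 46093 to 48884 CPM in the other 3. The median marker differed less. Relative to the mean of Kupffer cells labelled WT it was 105% in WT 31, 94.5% in WT 39, 86.6% in KO 27 and 88.1% in KO 43. Other lineages were represented by Spp1 (32.2 to 233 CPM over the 16 libraries), Cd79b (0 to 38.4 CPM), S100a8 (0.614 to 52.5 CPM) and Hbb-bs (2.18 to 335 CPM), the leading cholangiocyte, B cell, neutrophil and erythroid genes.

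The plot of member levels shows the main pattern. Both receptors were HSC transcripts, and the 4 ligands were spread over ECs, Kupffer cells and HSCs, each with its own order. In WT libraries the highest mean CPM was found in ECs for Pdgfd, in Kupffer cells for Pdgfb and Pdgfc, and in HSCs for Pdgfa, Pdgfra and Pdgfrb. In bulk libraries such as these, fewer cells of a type and less RNA per cell cannot be told apart.

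**Figure D1:**
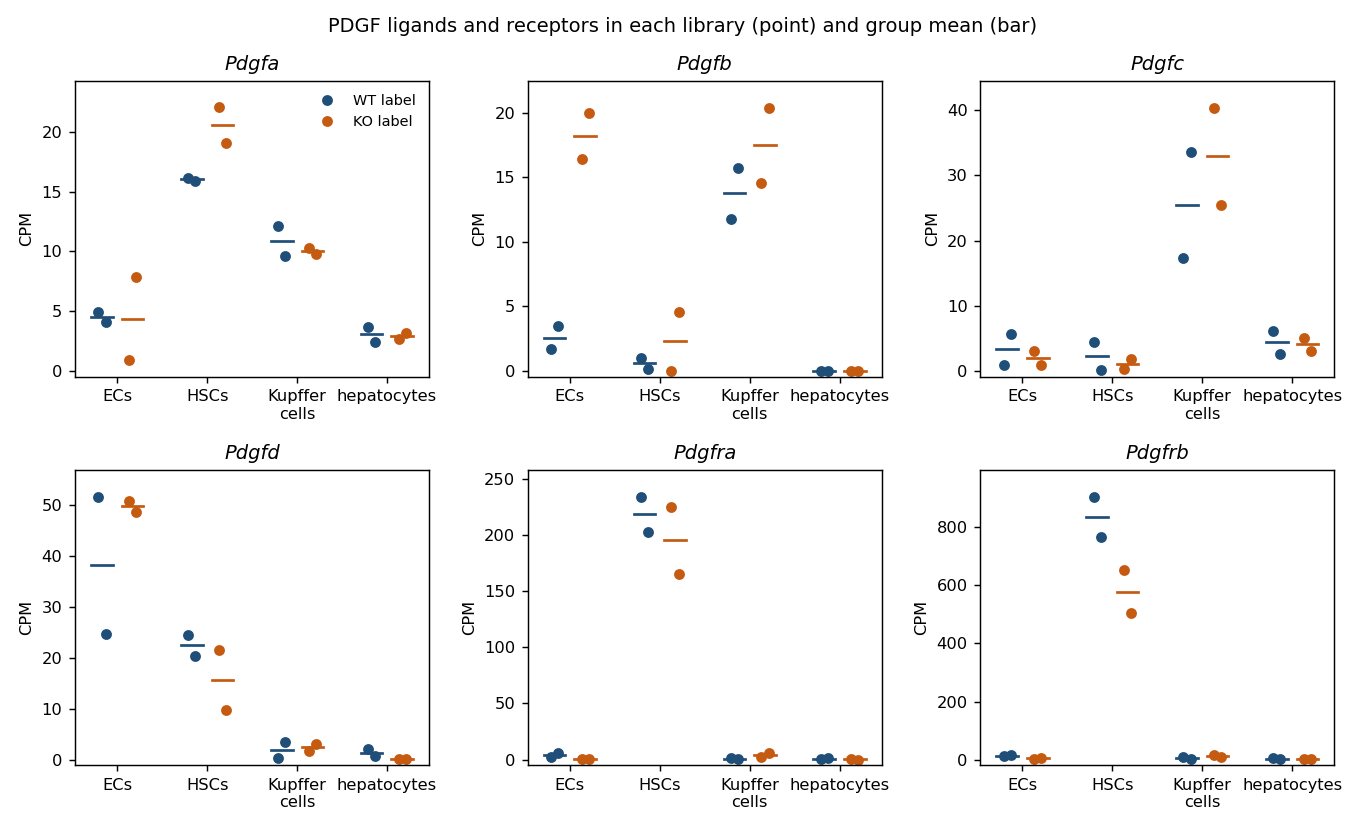
Each panel plots CPM (linear axis) of 1 member for ECs, HSCs, Kupffer cells and hepatocytes, with a point per library and a bar at the mean of each group of 2 (blue, WT label; orange, KO label). Pdgfra (165 to 234 CPM) and Pdgfrb (503 to 906 CPM) were high only in the 4 HSC libraries among the 16, and the EC libraries labelled KO (16.4 and 20.0 CPM of Pdgfb) lay above those labelled WT (1.67 and 3.50 CPM).

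Pdgfd, whose protein signals through receptor beta, was the leading endothelial ligand. It had 51.6 and 24.7 CPM in ECs labelled WT and 50.7 and 48.6 CPM in ECs labelled KO. In HSCs it had 24.4 and 20.4 CPM under the WT label and 21.4 and 9.75 CPM under the KO label. In plain CPM the 4 EC libraries lay above the 4 HSC libraries, with EC WT 38 only just above HSC WT 32. EC WT 34 and EC WT 38 differed from each other more than EC WT 38 differed from HSC WT 32. The TMM factors in the WT libraries were 1.37 and 1.46 for ECs and 1.15 and 1.18 for HSCs. With this scaling EC WT 38 would lie below HSC WT 32. In the fit over the 8 WT libraries, ECs and HSCs were not separated for Pdgfd (log2 fold change 0.50, SE 0.82, 95% interval -1.39 to 2.39, adjusted p = 0.748). Kupffer cells had only 0.335 to 3.52 CPM and hepatocytes 0.0674 to 2.04 CPM over both labels. Pdgfd was higher in ECs than in Kupffer cells by 4.02 on the log2 scale (SE 0.94, adjusted p = 0.0233) and higher than in hepatocytes by 3.49 (SE 0.93, adjusted p = 0.0184). HSCs exceeded the same cell types by 3.52 (SE 0.92, adjusted p = 0.0311) and 2.99 (SE 0.92, adjusted p = 0.0325). The stellate level of Pdgfd was 25.6% to 64.0% of the mean of ECs labelled WT. In the same libraries the median endothelial marker was at 1.16% to 4.02% of its EC level. The part of endothelial RNA in the stellate Pdgfd values was not tested. Without EC WT 34 both EC calls were lost (adjusted p = 0.108 against Kupffer cells and 0.0800 against hepatocytes), and without hepatocyte WT 33 the second was lost as well (adjusted p = 0.0997). The HSC call was lost against Kupffer cells without Kupffer WT 31 (adjusted p = 0.0687), HSC WT 32 (0.0923) or HSC WT 40 (0.0708), and against hepatocytes without HSC WT 32 (0.0794), HSC WT 40 (0.0506), hepatocyte WT 29 (0.0571) or hepatocyte WT 33 (0.156).

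Pdgfb, the ligand of vascular mural cells, had its highest level in WT livers in Kupffer cells rather than in ECs. Its level was 11.8 and 15.7 CPM in Kupffer cells labelled WT and 14.6 and 20.4 CPM in those labelled KO. ECs labelled WT had 1.67 and 3.50 CPM, from 24 and 45 reads. HSCs labelled WT had 1.02 and 0.128 CPM. In hepatocytes 0 reads were counted in all 4 libraries. In plain CPM, against the hepatocyte floor of 3 counts per library, Pdgfb was at least 69.6-fold higher in Kupffer cells labelled WT and at least 13.1-fold higher in ECs labelled WT. With TMM scaling both bounds would be smaller. The TMM factors were 0.579 and 0.531 for hepatocytes labelled WT, 1.37 and 1.46 for ECs and 1.01 and 1.19 for Kupffer cells. HSCs were lower than Kupffer cells (log2 fold change -4.62, SE 1.07, adjusted p = 0.0238), a call that was lost without Kupffer WT 31 (adjusted p = 0.0699), Kupffer WT 39 (0.0648) or HSC WT 40 (0.0746). ECs lay below Kupffer cells by a log2 value of -2.78 (SE 0.97, adjusted p = 0.0990) and above HSCs by 1.84 (SE 0.98, adjusted p = 0.284), and neither difference passed the threshold of 0.05. By mean CPM in WT livers, ECs ranked first for Pdgfd but not for Pdgfb. The fit separated neither ECs from HSCs for Pdgfd nor ECs from Kupffer cells for Pdgfb. For Pdgfd the log2 value of ECs over HSCs turned to -0.32 without EC WT 34. Per kb of exon, ECs labelled WT held 40.6 and 9.32 times as much Pdgfd as Pdgfb.

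Pdgfc, which signals mainly through receptor alpha, had its highest level in Kupffer cells. The Kupffer libraries had 17.3 and 33.6 CPM under the WT label and 40.4 and 25.5 CPM under the KO label. Hepatocytes had 2.66 to 6.12 CPM, ECs 0.904 to 5.67 CPM and HSCs 0.0640 to 4.42 CPM, so that each Kupffer library lay above all 12 others. With the spread of 2 libraries, the difference did not pass the threshold against ECs (log2 fold change -3.32 for ECs over Kupffer cells, SE 1.38, adjusted p = 0.144), against HSCs (-3.54 for HSCs over Kupffer cells, SE 1.39, adjusted p = 0.113) or against hepatocytes (1.54 for Kupffer cells over hepatocytes, SE 1.29, adjusted p = 0.368). DESeq2 called the first of these (adjusted p = 0.0455) and the second (adjusted p = 0.0249). The 2 HSC libraries with more Kupffer markers, WT 32 (median marker at 4.81% of its level in Kupffer cells labelled WT) and KO 20 (5.17%), were also those with more Pdgfc (4.42 and 1.87 CPM) and more Pdgfb (1.02 and 4.56 CPM). In the other 2 HSC libraries the marker median was 0.917% and 1.08%, Pdgfc had 0.0640 and 0.277 CPM, and Pdgfb 0.128 and 0 CPM. The part of Kupffer cell RNA in these stellate values was not tested.

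Pdgfa, the ligand of receptor alpha, was the most evenly spread member. HSCs had 16.1 and 15.9 CPM under the WT label and 22.1 and 19.1 CPM under the KO label, and Kupffer cells had 9.66 to 12.1 CPM in all 4 libraries. ECs had 4.95 and 4.12 CPM under the WT label but 0.905 and 7.86 CPM under the KO label, the widest gap for this gene between the libraries of a group. Hepatocytes had 2.45 to 3.70 CPM. HSCs exceeded ECs (log2 fold change -2.09 for ECs over HSCs, SE 0.47, adjusted p = 0.0281) and, just past the threshold, hepatocytes (1.32, SE 0.46, adjusted p = 0.0499). ECs were lower than Kupffer cells by a log2 value of -1.65 (SE 0.46, adjusted p = 0.0452). All 3 of these calls depended on single libraries. The first was lost without any 1 of the 4 EC and HSC libraries (adjusted p from 0.0822 to 0.140), the second without any 1 of the 4 HSC and hepatocyte libraries (0.0881 to 0.199), and the third without any 1 of 7 of the 8 WT libraries (0.0514 to 0.175), all but Kupffer WT 39. HSCs and Kupffer cells were not separated (0.45, SE 0.45, 95% interval -0.58 to 1.48, adjusted p = 0.523). ECs and hepatocytes were not separated either (-0.77, SE 0.46, adjusted p = 0.205), and the sign of this value turned to 0.56 when library totals replaced TMM factors.

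The receptors divided the cell types far more sharply than the ligands. Pdgfra, which in the liver marks HSCs and portal fibroblasts, had 234 and 203 CPM in HSCs labelled WT and 225 and 165 CPM in HSCs labelled KO. Pdgfrb (ENSMUSG00000024620, forward strand of chromosome 18 from 61045150 to 61085061) encodes the receptor of pericytes and smooth muscle cells. It had 906 and 765 CPM in HSCs labelled WT and 652 and 503 CPM in HSCs labelled KO. The next cell type in order of WT means was ECs for both receptors, at 4.35 CPM for Pdgfra and 13.3 CPM for Pdgfrb. HSCs labelled WT thus exceeded ECs labelled WT 50.2-fold for Pdgfra and 63.0-fold for Pdgfrb in CPM. In the edgeR fit the difference was -5.94 on the log2 scale for Pdgfra (ECs over HSCs, SE 0.81, adjusted p = 0.00376) and -6.27 for Pdgfrb (SE 0.88, adjusted p = 0.00418). Over Kupffer cells, HSCs were higher by 8.20 for Pdgfra (SE 0.93, adjusted p = 0.000862) and by 7.07 for Pdgfrb (SE 0.92, adjusted p = 0.00156). Over hepatocytes, HSCs were higher by 7.01 for Pdgfra (SE 0.88, adjusted p = 0.000621) and by 6.94 for Pdgfrb (SE 0.92, adjusted p = 0.000771). Among the 3 other cell types, ECs and Kupffer cells were not separated for Pdgfra (2.26, SE 0.81, adjusted p = 0.0963) or for Pdgfrb (0.81, SE 0.73, adjusted p = 0.492). Per kb of exon, Pdgfrb exceeded Pdgfra in HSCs 7.08-fold and 6.90-fold under the WT label, and 5.31-fold and 5.57-fold under the KO label.

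Outside HSCs receptor reads were few, and in ECs they lay lower in the libraries in which stellate markers lay lower. In ECs, Pdgfra was at 1.25% and 2.74% of the mean of HSCs labelled WT under the WT label, and at 0.255% and 0.350% under the KO label. Pdgfrb in ECs was at 1.29% and 1.89% under the WT label, and at 0.342% and 0.782% under the KO label. The median of the 11 stellate markers, scaled the same way, was 2.42% and 2.12% in ECs labelled WT and 0.677% and 0.804% in ECs labelled KO. Dcn, the one with the highest CPM, had 446 to 560 CPM in ECs labelled WT and 192 to 329 CPM in ECs labelled KO. The 11 genes summed to 754 to 999 CPM in ECs labelled WT and to 333 to 492 CPM in those labelled KO, with Lhx2 at 0 in WT 38 and Hand2 at 0 in both KO libraries. Smooth muscle and portal fibroblast genes (7 genes, led by Tagln) summed to 50.5 and 65.4 CPM in ECs labelled WT and to 30.4 and 21.7 CPM in ECs labelled KO. The part of stellate or mural RNA in the endothelial receptor values was not tested.

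**Figure D2:**
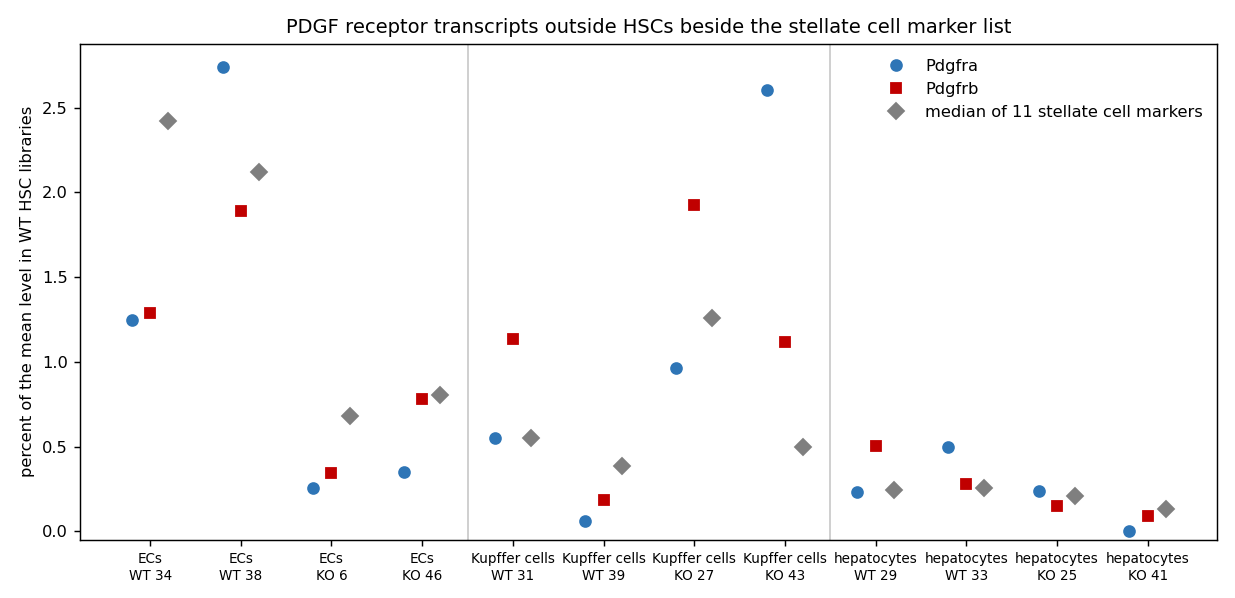
The vertical axis gives the level of Pdgfra (blue circles), of Pdgfrb (red squares) and the median of 11 stellate cell markers (grey diamonds) as a percent of the mean in the 2 HSC libraries labelled WT, for the 12 libraries of the other cell types. In ECs all 3 lay higher in the libraries labelled WT (1.25% to 2.74%) than in those labelled KO (0.255% to 0.804%), and in Kupffer library KO 43 Pdgfra (2.60%) lay above the marker median (0.498%).

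Counting over the 6 pairs of cell types in the WT libraries, 3 members were called between ECs and HSCs (Pdgfa, Pdgfra and Pdgfrb), where 10.2% of the 15979 genes tested were called. Between ECs and Kupffer cells 2 were called (Pdgfa and Pdgfd) against 17.3% of genes, and between ECs and hepatocytes 2 (Pdgfb and Pdgfd) against 43.6% of genes. HSCs differed from Kupffer cells in 4 members (Pdgfb, Pdgfd, Pdgfra and Pdgfrb) against 21.2% of genes, and from hepatocytes in 4 (Pdgfa, Pdgfd, Pdgfra and Pdgfrb) against 41.8%. Kupffer cells differed from hepatocytes in 1 (Pdgfb) against 40.6%. With hepatocytes, the share of members called was therefore at or below that of all genes except in the comparison with HSCs. The receptor calls of HSCs against each other cell type held without any 1 of the 8 WT libraries.

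In ECs, 1 of the 6 members was called between the labels, Pdgfb, where 2.08% of 14631 genes were called in either direction and 0.116% were higher under the KO label. Pdgfb rose from 24 and 45 reads (1.67 and 3.50 CPM) under the WT label to 236 and 288 reads (16.4 and 20.0 CPM) under the KO label. Both libraries labelled KO lay above both labelled WT, and 3 of the 6 members did not overlap between the labels in ECs, where 48.2% of the genes tested did not. The log2 fold change was 2.83 (SE 0.50, 95% interval 1.63 to 4.03), with an edgeR adjusted p of 0.0492. The endothelial level of Pdgfb under the KO label was 119% and 145% of the mean of Kupffer cells labelled WT, the cell type with the highest Pdgfb among WT libraries. Kupffer markers were higher in the same EC libraries, and their median was 1.53% and 0.933% of the Kupffer level under the WT label and 2.09% and 2.17% under the KO label. Platelet genes, listed because platelets carry PDGF, summed to 27.7 and 40.2 CPM under the WT label and to 66.4 and 38.2 CPM under the KO label (6 genes, with Itga2b at 8.09 to 14.4 and 16.4 to 34.4 CPM). Itga2b was higher still in HSCs, at 104 to 229 CPM. Summed hepatocyte markers were 12782 and 26422 CPM under the WT label and 3040 and 2164 CPM under the KO label. The part of these cell types in the result was not tested. The log2 fold change was between 2.43 and 3.42 in all 11 alternatives, and the call held in 6 of them, over which the adjusted p ran from 2.41e-06 to 0.546. It was lost without EC KO 6 (adjusted p = 0.0804), without EC KO 46 (adjusted p = 0.177), without hepatocyte-enriched genes (adjusted p = 0.180), with all 16 libraries in 1 fit (adjusted p = 0.546) and with library totals (adjusted p = 0.0649).

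Per kb of exon, Pdgfd was the first ligand in all 4 EC libraries, and Pdgfb was the second in both labelled KO (3.95 and 4.81 CPM per kb) but not in those labelled WT (0.402 and 0.840 CPM per kb), where Pdgfa was (1.59 and 1.32 CPM per kb). The ratio of Pdgfd to Pdgfb was 4.07 and 3.20 in ECs labelled KO, against the 40.6 and 9.32 given above for ECs labelled WT. Pdgfd itself had a log2 fold change of 0.37 (SE 0.37, 95% interval -0.53 to 1.27, adjusted p = 0.705). Pdgfa had a log2 fold change of -0.01 (SE 0.98, adjusted p = 0.999), with an interval from -2.36 to 2.35. Pdgfc, at 0.907 and 5.67 CPM under the WT label and 3.06 and 0.904 CPM under the KO label, had a value of -0.74 (SE 1.07, adjusted p = 0.809). For the receptors, both libraries labelled KO lay below both labelled WT. Pdgfra had 39 and 77 reads in ECs labelled WT against 8 and 11 in those labelled KO (log2 fold change -2.69, SE 0.84, adjusted p = 0.215). Pdgfrb had 154 and 203 reads against 41 and 94 (-1.47, SE 0.55, adjusted p = 0.292). Neither receptor difference passed the threshold, and the stellate markers given above were lower in the same libraries.

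**Figure D3:**
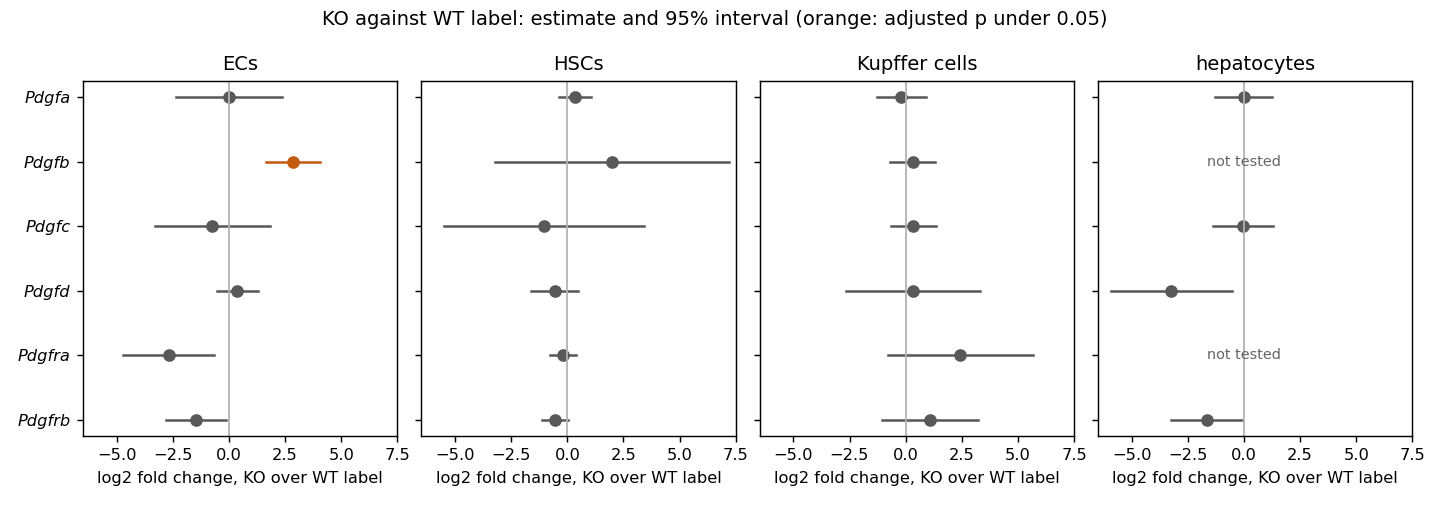
Each panel plots the edgeR log2 fold change of KO over WT label (point) with its 95% interval (line) for the 6 members in 1 cell type. Orange marks an adjusted p under 0.05, which Pdgfb in ECs reached (2.83, adjusted p = 0.0492), and Pdgfb and Pdgfra were not tested in hepatocytes.

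In HSCs, 0 of the 6 members were called between the labels by edgeR, 0 had an unadjusted p under 0.05, and DESeq2 also called 0. The background was 0% of 14390 genes with edgeR, of which 1259 had an unadjusted p under 0.05, while DESeq2 called 17 genes higher and 391 lower. Pdgfrb was the receptor with the larger gap, since both libraries labelled KO (652 and 503 CPM) lay below both labelled WT (906 and 765 CPM). Its log2 fold change was -0.56 (SE 0.23, 95% interval -1.13 to 0.01, adjusted p = 0.577). Pdgfra overlapped between the labels (-0.19, SE 0.22, adjusted p = 0.875). Pdgfa lay higher in both libraries labelled KO (0.34, SE 0.28, adjusted p = 0.828). The labels did not overlap for 39.8% of genes in HSCs, against 2 of the 6 members. Pdgfd had a value of -0.57 (SE 0.42, adjusted p = 0.799). Pdgfb, from 0 and 66 reads under the KO label and 16 and 2 under the WT label, had a value of 2.00 with an interval from -3.22 to 7.21 (adjusted p = 0.863). Pdgfc had a value of -1.06 (SE 1.78, adjusted p = 0.918). Summed hepatocyte markers were 3599 and 8314 CPM in HSCs labelled WT and 673 and 1666 CPM in those labelled KO, smooth muscle genes were 202 and 177 CPM against 311 and 460 CPM, and stellate genes 47768 and 47440 CPM against 55777 and 48697 CPM. Their part in the Pdgfrb values was not tested.

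In Kupffer cells, 0 of the 6 members were called by edgeR, 0 had an unadjusted p under 0.05, and DESeq2 called 0. The background was 0% of 13867 genes with edgeR, of which 706 had an unadjusted p under 0.05, while DESeq2 called 48 higher and 24 lower. Neither ligand that was highest in Kupffer cells passed the threshold, with Pdgfb at a log2 fold change of 0.31 (SE 0.41, 95% interval -0.68 to 1.29, adjusted p = 0.968) and Pdgfc at 0.34 (SE 0.41, 95% interval -0.66 to 1.33, adjusted p = 0.962). Pdgfra was the 1 member whose labels did not overlap, where 36.6% of genes did not overlap. It had 18 and 2 reads under the WT label (1.21 and 0.130 CPM) and 32 and 84 reads under the KO label (2.11 and 5.69 CPM), a log2 fold change of 2.42 (SE 1.33, adjusted p = 0.933). Pdgfrb had 9.46 and 1.57 CPM under the WT label and 16.1 and 9.34 CPM under the KO label (1.07, SE 0.88, adjusted p = 0.938). Library KO 27 had the highest stellate marker median of the Kupffer libraries (1.26%) and the most Pdgfrb. Library KO 43 had the most Pdgfra and a median of 0.498%, beside 0.552% and 0.384% in the libraries labelled WT. The part of stellate RNA in the Kupffer receptor values was not tested.

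In hepatocytes, 4 of the 6 members passed the filter on low counts, and Pdgfb and Pdgfra did not. EdgeR called 0 of the 4, 2 had an unadjusted p under 0.05, and DESeq2 called 0 but gave no adjusted p for Pdgfd. The background was 0% of 11548 genes with edgeR, of which 821 had an unadjusted p under 0.05, while DESeq2 called 13 higher and 19 lower. The labels did not overlap for 2 members, Pdgfd and Pdgfrb, against 39.5% of genes, and both lay lower under the KO label. Pdgfrb had 66 and 34 reads under the WT label against 19 and 11 with the KO label (a log2 value of -1.66, SE 0.65, adjusted p = 0.700). Pdgfd had 32 and 10 reads under the WT label and 3 and 1 under the KO label (-3.23, SE 1.10, adjusted p = 0.700). Both stayed at or below 4.21 CPM, so that few reads were behind the comparison. Summed stellate markers in these libraries were 169 and 146 CPM under the WT label and 156 and 118 CPM under the KO label, and summed endothelial markers 128 to 151 CPM against 85.5 to 107 CPM.

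Whether the label effect differed between cell types was tested as an interaction over all 16 libraries. For ECs against HSCs edgeR called 0 members, where it called 0.0349% of 17214 genes. There 1 member and 835 of all genes had an unadjusted p under 0.05. DESeq2 called 0 members, beside 33 genes higher and 65 lower. Between ECs and Kupffer cells edgeR called 0 members against 2.07% of genes. An unadjusted p under 0.05 was found for 2 members and 2403 of the 17214 genes, and DESeq2 called 1 member, Pdgfra, and 183 genes higher and 904 lower. Between ECs and hepatocytes edgeR called 0 members against 0.0697% of genes, and 1 member and 1570 of the 17214 genes had an unadjusted p under 0.05. DESeq2 called 0 members there, beside 70 genes higher and 523 lower. For Pdgfb, the endothelial effect exceeded the stellate by 0.84 (SE 1.98, adjusted p = 0.99999) and the Kupffer effect by 2.51 (SE 1.87, adjusted p = 0.617). The rise of Pdgfb was therefore not shown to be particular to ECs. For Pdgfra, the endothelial effect lay below the Kupffer effect by a log2 value of -5.13 (SE 1.24, adjusted p = 0.0585) and below the stellate by -2.48 (SE 1.12, adjusted p = 0.99999). For Pdgfrb these differences were -2.55 (SE 0.96, adjusted p = 0.257) and -0.90 (SE 0.94, adjusted p = 0.99999).

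Around the 6 members, a list of 69 genes of the PDGF pathway was followed by role. In ECs 66 of them passed the filter, of which 0 were higher and 1 was lower under the KO label, against 2.08% of all genes. The gene that fell was Lrp1, an endocytic receptor that associates with PDGF receptor beta. It had 58.5 and 69.0 CPM in ECs labelled WT and 23.5 and 22.5 CPM in ECs labelled KO (log2 fold change -1.47, SE 0.23, adjusted p = 0.0379). Lrp1 had 147 and 167 CPM in hepatocytes labelled WT and 770 and 959 CPM in HSCs labelled WT, whose markers were both lower in the same EC libraries. It also had 634 and 806 CPM in Kupffer cells labelled WT, whose markers were higher in these, and the part of all 3 cell types in the result was not tested. Its call was lost without EC WT 38 (adjusted p = 0.0598), EC KO 6 (0.184) or EC KO 46 (0.180), with library totals (0.0503) and without hepatocyte-enriched genes (0.152), while the log2 fold change was between -1.54 and -1.37 in all of the alternatives fitted in ECs. The median log2 fold change of the 66 genes was -0.11, beside -0.01 for all genes tested.

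By role, the ligand-processing proteases had a median of 0.08 in ECs (7 genes, from -2.15 to 1.03). The binding partners and co-receptors had a median of -0.24 (8 genes), the adaptors, enzymes and kinases next to the receptor -0.18 (22 genes), the downstream kinases -0.02 (11 genes), the negative regulators -0.11 (12 genes) and the related class III receptors and their ligands -0.03 (6 genes). Of the abundant genes, Sparc, a matricellular protein that binds PDGF-B, had 4099 to 5936 CPM in ECs and 4212 to 8682 CPM in HSCs, and Dcn 32457 to 41253 CPM in HSCs. Pcsk7 and Furin, proprotein convertases, were found in all 4 cell types, at 80.6 to 91.3 and 25.4 to 50.7 CPM in ECs. Of the intracellular genes, Jak1 had 1009 to 1851 CPM in ECs and Stat3 285 to 572 CPM, and the kinases Map2k1 and Map2k2, which activate ERK, had 124 to 152 and 112 to 156 CPM in ECs. Ptpn1, a phosphatase that acts on receptor tyrosine kinases, was highest in Kupffer cells (410 to 772 CPM), and Spry1, an inhibitor of the same pathway, in HSCs (331 to 470 CPM). Csf1r, a relative of the PDGF receptors that macrophages need, had 3508 to 6221 CPM in Kupffer cells, whereas its ligand Csf1 had 282 to 541 CPM in HSCs and 8.52 to 24.7 CPM in Kupffer cells. Of these 12 genes, 0 passed the threshold between the labels with edgeR in any of the 4 cell types, and DESeq2 called Spry1 higher under the KO label in ECs. DESeq2 also called Stat5b lower there, beside Lrp1, so that it called 3 of 66, where it called 143 higher and 840 lower of all 14631 genes. With edgeR, 11 of the 66 had an unadjusted p under 0.05 in ECs, beside 2192 of the 14631, and neither count sets the list apart from all genes.

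**Figure D4:**
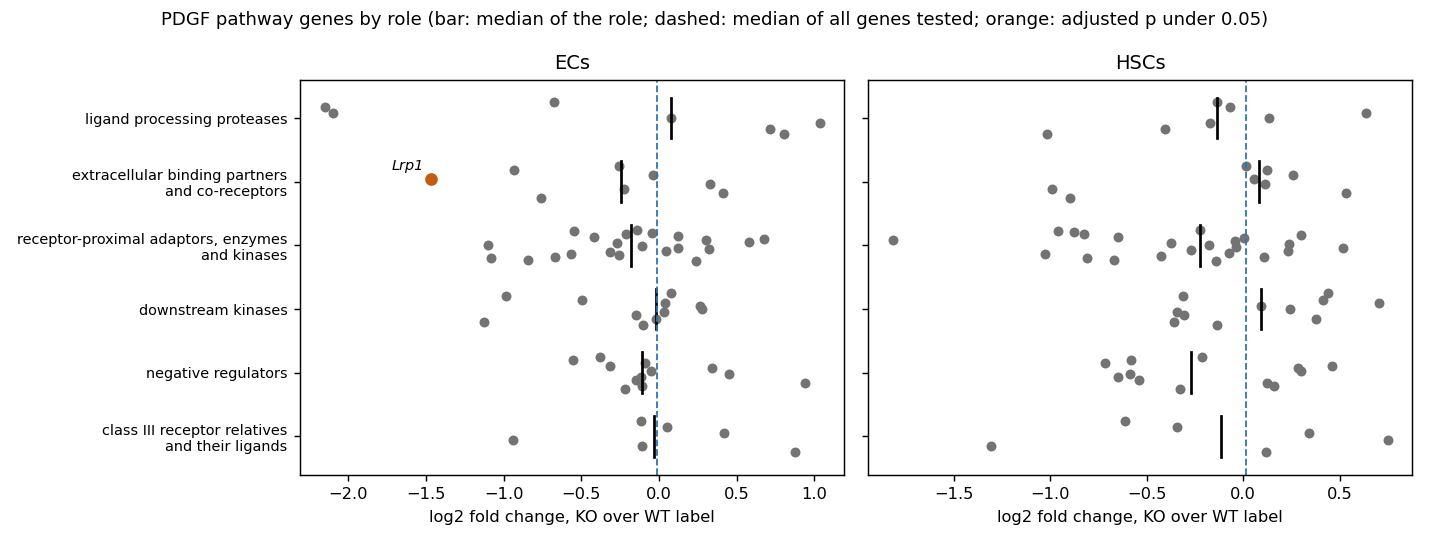
Each point is the edgeR log2 fold change of KO over WT label for 1 gene of the PDGF pathway list, by role, in ECs (left) and HSCs (right), with a black bar at the median of the role and a dashed line at the median of all genes tested. Lrp1 in ECs (-1.47, orange) had an adjusted p under 0.05, and the role medians lay between -0.24 and 0.08 in ECs and between -0.27 and 0.09 in HSCs.

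In the other cell types edgeR called 0 genes of the pathway list between the labels. In HSCs 67 genes were tested and 8 had an unadjusted p under 0.05, beside 1259 of all 14390 genes. DESeq2 called 0 of them, beside 17 higher and 391 lower of all genes. In Kupffer cells 67 were tested and 9 had an unadjusted p under 0.05, beside 706 of all 13867 genes. DESeq2 called 1 there, beside 48 higher and 24 lower of all genes. The gene was Plau, which encodes the urokinase that can activate PDGF-D. Plau had 60.0 and 50.8 CPM in Kupffer cells labelled WT and 159 and 154 CPM in those labelled KO (edgeR log2 fold change 1.43, SE 0.30, adjusted p = 0.933). In hepatocytes 61 were tested and 4 had an unadjusted p under 0.05, beside 821 of all 11548 genes. DESeq2 called 0 of the list, beside 13 higher and 19 lower of all genes. The list had a median of -0.14 in HSCs, 0.29 for Kupffer cells and -0.29 for hepatocytes, beside 0.02, -0.02 and -0.02 for all genes tested. In Kupffer cells the 7 proteases had values of 0.33 to 2.36 with a median of 1.18, and the smallest adjusted p among them was 0.933. In the same libraries the summed markers of some other cell types were higher under the KO label. They were 1367 to 1554 against 958 to 1192 CPM for endothelial and 10421 to 12972 against 6390 to 9439 CPM for hepatocyte genes. Platelet genes had 68.7 to 141 against 38.7 to 43.3 CPM, and the smooth muscle and neutrophil sums were also higher. The stellate (184 to 608 against 197 to 331 CPM), cholangiocyte, lymphocyte and erythroid sums overlapped between the labels. The part of all these cell types in the protease values was not tested.

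As a description of likeness, each member was correlated across the 16 libraries with the other genes of a set (Pearson's r of log2 CPM). The set held 13826 genes with a symbol and a mean of at least 1 CPM, members included. The libraries fall into 4 cell types that share their sort and isolation, so that r mainly describes the order of the cell types. Pdgfra and Pdgfrb were each other's near neighbours (r = 0.980). The genes most like Pdgfra were Foxs1, a forkhead transcription factor (0.982), Pdgfrb and the neurotrophin receptor Ngfr (0.978). Those most like Pdgfrb were Igfbp3 (0.985), Gucy1a3, a subunit of soluble guanylate cyclase (0.985), and Ngfr (0.984). Pdgfd was most like Atp6v0a2 (0.976), Map4k5 (0.975) and Pros1, which encodes protein S (0.973). Pdgfb was most like Ripk3 (0.951), the Fc receptor chain Fcer1g (0.950) and Acvrl1, a BMP9 receptor (0.945). Pdgfc was most like Gm43323 (0.917), Rab32 (0.916) and Ncapg (0.914), and Pdgfa like Cxcl14 (0.913), Src (0.906) and Zfr2 (0.902). Among the ligands, Pdgfa had the highest r with the receptors (0.701 with Pdgfra and 0.756 with Pdgfrb), Pdgfd had 0.501 and 0.520, Pdgfb -0.13 and -0.08, and Pdgfc -0.49 and -0.48.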

How the data were processed

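Gene-level read counts of 16 libraries (4 cell types, 2 labels, 2 libraries each) were analysed. The authors deposited raw counts per Ensembl gene from HTSeq 0.9.1, without normalization. Per the submitters' processing notes, reads were trimmed with Trimmomatic 0.32 and aligned with HISAT2 2.1.0 to GRCm38, and edgeR was used. The strand setting and the annotation release are not given in the sources used here. The labels name a stranded TruSeq mRNA kit and the series' design text the Smart-seq2 method, and this difference was not resolved. The 5 summary lines of each table, 42.5% to 57.5% of all reads, were left out of totals and tests, and CPM was computed over gene rows. Of the 47729 identifiers, 99.1% were in GENCODE M21, which gave positions and exon lengths.

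Counts were tested with edgeR 4.0.16 in R 4.3.3 (filterByExpr, TMM, quasi-likelihood test, Benjamini-Hochberg adjustment over all genes tested, threshold 0.05). KO against WT label was fitted in the 4 libraries of each cell type, pairs of cell types in the 8 WT libraries, and interactions in all 16. DESeq2 1.42.0, RLE factors, library totals (added after seeing the data), other filters, other sets of genes (without 857 hepatocyte-enriched genes) or libraries, and leaving out each library were alternatives. The 2 libraries of every group differed by more than sampling noise (mean chi-square per gene 29.6 to 109). Intervals and floors cover the reads counted. Named genes were the members, Zeb2, pathway genes past the threshold between labels, the 2 genes of highest mean CPM in each pathway role, the 3 genes most like each member and the gene of highest mean CPM in each marker list, and Plau, Stat5b, Lhx2 and Hand2 were named after their values were seen. The members and lists were chosen with earlier results of these data known.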

Additional observations from a re-analysis of the deposited data

Results flagged for a closer look

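The differences of Pdgfra between the labels had opposite signs in Kupffer cells and in ECs, and neither passed the threshold (edgeR adjusted p = 0.933 in Kupffer cells and 0.215 in ECs). Its mean was 3.23 CPM higher under the KO label in Kupffer cells, where both libraries labelled KO lay above both labelled WT, and in ECs the difference of the means (KO minus WT) was -3.69 CPM, with both libraries labelled KO below. The difference of the 2 effects, tested as an interaction over all 16 libraries with edgeR, was -5.13 on the log2 scale (adjusted p = 0.0585), and DESeq2 gave an adjusted p of 0.00135. Over all alternatives of this result the adjusted p ran from 7.32e-11 to 0.235. The median of the 11 stellate markers was lower in the same EC libraries labelled KO (0.677% and 0.804% of the HSC level, against 2.42% and 2.12% under the WT label), and its part in the difference was not tested. The values rest on 2 to 84 reads in Kupffer cells and 8 to 77 in ECs. With 2 libraries in a group, single libraries could not be tested for standing apart.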

How the results depend on the processing

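No paired analysis was made, because the labels give no replicate number that 2 of the compared groups share. Title numbers lie next to each other across cell types, as for EC WT 38, Kupffer WT 39 and HSC WT 40. Whether such libraries came from the same liver is not stated, and the fits took all libraries as independent. Over the counts of members called in the 13 comparisons, 60 of 79 alternatives and 73 of 88 fits that left out a library stayed within 1.5 times the count reported; for the 48 single-member values printed in the text, a selection of all members and comparisons, 251 of 276 and 262 of 311 kept direction and side of the threshold. For the KO label in HSCs, Kupffer cells and hepatocytes and for the differences of the label effect, the count reported was 0. There edgeR called at most 2.07% of all genes, so that a count which stayed at 0 says little about stability. Where a count or sign moved, the cause was not tested. For the KO label in ECs the count of 1 became 0 with library totals, without hepatocyte-enriched genes and with all 16 libraries in 1 fit, and 0 to 1 when a library was left out. DESeq2 gave 5 for ECs against Kupffer cells, where it called 1972 higher and 1861 lower of all 15979 genes. It gave 1 for the difference of the label effect between ECs and Kupffer cells, where it called 183 higher and 904 lower of 17214. Without a filter on low counts the counts were 4 for ECs against Kupffer cells (2086 higher and 1708 lower of all 27273 genes). They were 4 for ECs against hepatocytes (4335 and 3132) and 2 for Kupffer cells against hepatocytes (3972 and 3025). For the differences of ECs from HSCs, Kupffer cells and hepatocytes they were 1, 2 and 1 (137 and 168, 164 and 1138, and 231 and 749 of 29481 genes). A filter of at least 10 counts in every library was met by only 2 members in the cell type pairs. With it the counts were 1 for ECs against Kupffer cells (1155 higher and 1018 lower of all 9568 genes) and 0 for ECs against hepatocytes (2525 and 2727). They were 1 for HSCs against Kupffer cells (1271 and 1202), 2 for HSCs over hepatocytes (2416 and 2502) and 0 for Kupffer cells over hepatocytes (2257 and 2608). With library totals they were 1 for ECs against Kupffer cells, 4 for ECs over hepatocytes and 2 for Kupffer cells over hepatocytes. Leaving out a library gave 0 to 3 for ECs against Kupffer cells, 0 to 2 for ECs against hepatocytes, 2 to 4 for HSCs against Kupffer cells, 2 to 4 for HSCs over hepatocytes, 1 to 3 for Kupffer cells over hepatocytes and 0 to 1 for the difference between ECs and Kupffer cells. The sign turned for Pdgfa under the KO label in ECs (0.0040 without a filter), for Pdgfra (-0.27) and Pdgfrb (-0.44) in ECs against Kupffer cells with all 16 libraries averaged over labels, and for Pdgfa in ECs against hepatocytes (0.56 with library totals). It also turned when a library was left out, with ranges of -2.36 to 0.86 for Pdgfa, -1.76 to 1.07 for Pdgfc and -0.078 to 1.047 for Pdgfd under the KO label in ECs, -6.20 to 4.12 for Pdgfb and -3.09 to 3.93 for Pdgfc in HSCs, and -0.012 to 0.56 for Pdgfb in Kupffer cells. The same held for Pdgfd in ECs against HSCs (-0.32 to 0.89), Pdgfrb in ECs against Kupffer cells (-0.14 to 2.81) and the difference of the Pdgfb effect between ECs and HSCs (-1.20 to 8.96).

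Over all genes, the KO label in ECs gave 17 higher and 288 lower calls, against 143 and 840 with DESeq2, 214 and 1045 without a filter, 31 and 458 with at least 10 counts, 13 and 177 with library totals, 0 and 0 without hepatocyte-enriched genes (1665 at an unadjusted p under 0.05), and 1 and 2 without EC KO 46. Library totals shifted the median log2 fold change of all genes by 1.33 for ECs, 1.06 for HSCs and 0.978 for Kupffer cells against hepatocytes, by 0.359 for ECs against Kupffer cells and by 0.280 for ECs against HSCs, and RLE factors by 0.145 for Kupffer cells against hepatocytes. The higher and lower calls moved from 3705 and 3255 to 7436 and 1331 for ECs against hepatocytes, from 3658 and 3025 to 6960 and 1644 for HSCs against hepatocytes, from 3271 and 3218 to 5853 and 1844 for Kupffer cells against hepatocytes, from 1475 and 1287 to 2047 and 953 for ECs against Kupffer cells, and from 779 and 851 to 1058 and 681 for ECs against HSCs. Pdgfb and Pdgfc had at most 66 and 69 reads in HSCs, which limits the precision of their values there.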
